A study of Homo sapiens with 18 samples.

Results

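The human chromosome 20 sites of the transcription factor MYC were examined in MCF10A cells, an immortalised breast epithelial line, by chromatin immunoprecipitation and sequencing (ChIP-seq). All listed peaks on the chromosome (build hg19) were joined wherever at least 1 bp overlapped between the 9 peak lists. This gave 1372 regions out of 43222 on chromosomes 1 to 22 and X, or 3.17%, built from 4901 of 150870 peaks. The long arm, 20q, was taken to start above position 29400000 and held 885 regions. The short arm, 20p, was taken to end below 26000000 and held 487, and no region lay between these bounds.

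All cells carried ectopic MYC (pBABE-hygro-MYC) and the mutant PI3KH1047R (pMN-IRES-GFP-PI3KH1047R), controls included, so every value describes MYC sites under added MYC. The compared groups were cells with either of 2 doxycycline-inducible hairpins against the histone methyltransferase G9a, written shG9a_1 and shG9a_4 here, and cells with the scramble hairpin shSCR. Each group received doxycycline at 2 µg/mL for 72 h and gave 3 libraries, which the series' design calls biological replicates. Each immunoprecipitation took 10000000 cells and the antibody N262, and the 9 input samples were not used here. G9a itself was not measured in the files used here, so the knockdown could not be checked.

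MYC binds DNA as a dimer with MAX, preferring the E-box CACGTG, and in cells with much MYC it is found at most active promoters and many enhancers. Dense MYC sites are therefore usual in gene-rich DNA. G9a places mono- and dimethylation on lysine 9 of histone H3, a modification found in repressed chromatin. MCF10A lines are reported to carry extra chromosome 20 material. Copy number was not measured here.

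The peak lists give no read counts, so depth is known only in relative form. From each peak's fold and p-value a whole-number pileup, the count of fragments over the summit, and a local background were recovered. Relative depth was 2.34, 0.836 and 1.08 in the shG9a_1 libraries, 1.90, 1.06 and 2.63 in the shG9a_4 libraries and 1.04, 1.04 and 0.926 in the shSCR libraries, where the shSCR mean is 1. The library shG9a_1 replicate 1 stood apart with 113 peaks in its whole list, against 11168 to 34738 in the other 8. Its depth value rests on a shortest peak of 51 bp, against 130 to 157 bp in the others. Measures within a library below leave it out, since it had fewer than 10 peaks on each arm.

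Chromosome 20 carried fewer listed MYC peaks in the G9a hairpin libraries than in the scramble libraries, on both arms. The shG9a_1 lists held 4, 387 and 455 chromosome 20 peaks and the shG9a_4 lists 363, 571 and 422, against 931, 1120 and 648 in the shSCR lists. Every shG9a list was below every shSCR list. The mean was 367 ± 192 (SD, n = 6) in shG9a and 899.7 ± 238 (SD, n = 3) in shSCR, a difference of -533. A two-sided exact permutation test gave p = 0.0238, the smallest that the 84 splits of 6 against 3 allow. Adjusted over 5 comparisons of the groups (peak number, chromosome 20 share, 20q share, and the arm contrasts in fold and height), the exact p was 0.0595, which misses 0.05. Over these 5 and the 4 height comparisons below, 9 in all, it was 0.0536. With the 11000 leading peaks of each list, which sets the list lengths equal, the difference in peak number was -2.8 (exact permutation p = 0.607). The list of shG9a_1 replicate 1 is too short for this, so 5 shG9a libraries were compared there. With whole lists and the same libraries the difference was -460 (exact permutation p = 0.0357). The whole lists moved alike, with 113 to 17454 peaks in shG9a and 20118 to 34738 in shSCR, and the part of this in the chromosome 20 difference was not tested. Recovered depth, estimated from the recovered background and the shortest peak, was above that of every shSCR library in 5 of the 6 shG9a libraries. The exception was shG9a_1 replicate 2. In shG9a_1 replicate 3 and shG9a_4 replicate 2 it was only slightly above, at 1.08 and 1.06 against at most 1.04 in shSCR. The value of shG9a_1 replicate 1 rests on a shortest peak of 51 bp. The part of depth in the peak numbers was not tested.

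On 20q alone, shG9a_1 lists held 2, 255 and 297 peaks and shG9a_4 lists 238, 371 and 284, against 595, 730 and 435 in shSCR lists. On 20p alone, the values were 2, 132 and 158 in shG9a_1 and 125, 200 and 138 in shG9a_4, against 336, 390 and 213 in shSCR. On neither arm did the ranges of the 2 groups overlap. The share of chromosome 20 peaks that lay on 20q was 65.8% ± 0.904 (SD, n = 5) in shG9a and 65.4% ± 1.62 (SD, n = 3) in shSCR. An exact permutation test gave p = 0.679, adjusted 0.848, for that share, a difference smaller than the spread between libraries.

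The share of a library's peaks that lay on chromosome 20 ran the other way. The shG9a_1 lists had 3.54%, 3.38% and 3.48% there and the shG9a_4 lists 3.25%, 3.27% and 3.27%, against 3.12%, 3.22% and 3.22% in shSCR. The groups did not overlap, but they lay close together, with means of 3.36% ± 0.123 (SD, n = 6) in shG9a and 3.19% ± 0.0585 (SD, n = 3) in shSCR. The exact permutation p was 0.0238, the smallest possible, and 0.0595 after adjustment. The difference, 0.175 percentage points, depended on which peaks were counted. It was 0.485 with peaks of −log10 q of at least 5 (exact permutation p = 0.190). With peaks of fold 5 or more it was -0.00992 percentage points. With the 11000 leading peaks of each list, which leaves out shG9a_1 replicate 1, it was -0.0255.

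Peaks were denser on 20q than on 20p in every library that could be tested. Density is the number of peaks per Mb between the first and last region of an arm, which was 33.4 Mb on 20q and 25.7 Mb on 20p. It averaged 12 ± 5.32 peaks per Mb on 20q and 8.22 ± 3.87 on 20p (SD over 8 libraries). The lists differ in length, which widens these SDs, and the ratio within a library was 1.37 to 1.59. On the log2 scale the difference was 0.56 ± 0.07 (SD, n = 8), and 8 of 8 libraries had it in this direction. An exact two-sided sign-flip permutation test over libraries gave an adjusted p of 0.0313 (raw 0.0078, the smallest possible with 8), adjusted over the 12 within-library comparisons of density, fold, width and background. All 8 libraries come from 1 line, so these p-values speak of repeatability between libraries of this line.

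Chromosome 20 stood between its small neighbours in density. It had 10.4 ± 4.68 peaks per Mb, against 7.47 ± 3.58 on 21q (SD over 8 libraries), a log2 difference of 0.49 ± 0.05 with ratios of 1.31 to 1.46. On 22q the density was higher, at 13.7 ± 6.17 peaks per Mb, and the log2 difference of chromosome 20 from 22q was -0.40 ± 0.05 with ratios of 0.730 to 0.787. Both differences had 1 direction in 8 of 8 libraries, each with an adjusted exact sign-flip p of 0.0313. Without any 1 of 7 of these libraries (all but shSCR replicate 1) the adjusted exact p of each of the 3 density differences was 0.0625. The raw exact sign-flip p was then 0.0156, the smallest that 7 libraries allow, with 1 direction in every library. The log2 values were 0.545 to 0.567 for 20q over 20p, 0.477 to 0.489 for chromosome 20 over 21q and -0.406 to -0.391 over 22q. The order 22q, 20q, 20p and 21q was the same in all 8 libraries, whose lists differed much in length.

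**Figure D1:**
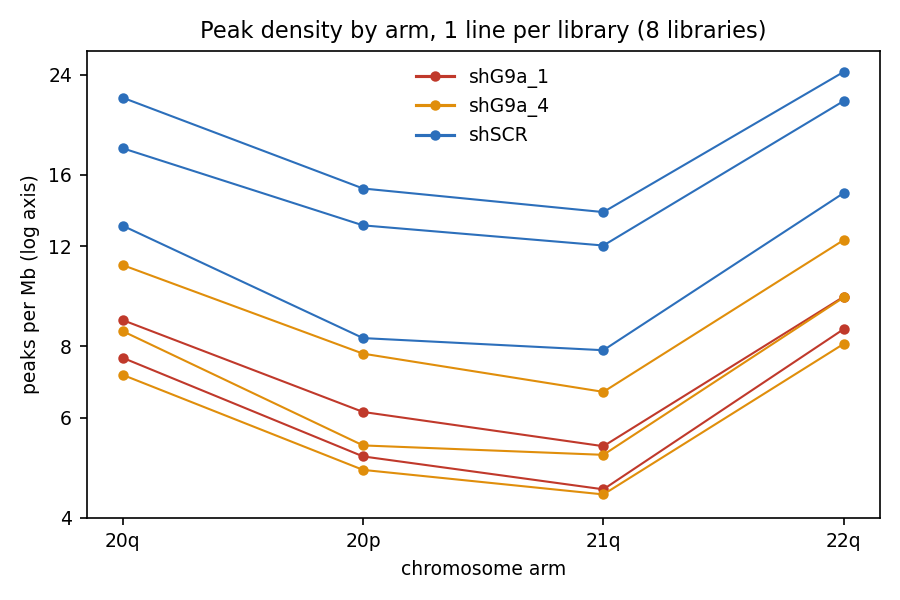
Peaks per Mb (log y axis) on 20q, 20p, 21q and 22q (x axis), with 1 line for each of 8 libraries coloured by hairpin; shG9a_1 replicate 1, with 4 chromosome 20 peaks, is left out. The lines run nearly parallel, with 20q above 20p in 8 of 8 libraries and 22q above both.

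Counted per gene, the 3 chromosomes lay closer together. RefSeq on GRCh38.p14, another build than that of the peaks and used here for counts of genes alone, lists 537 protein-coding genes on chromosome 20, 239 on chromosome 21 and 451 on chromosome 22. That makes 2.55 regions per protein-coding gene on chromosome 20, 2.31 on chromosome 21, 2.30 on chromosome 22 and 2.16 over all chromosomes, a description with no test. Of the RefSeq promoter windows of 300 bases on chromosome 20, 80 of 921 (8.69%) held the E-box letters CACGTG, which read the same on both strands, against 7.17% on chromosome 21, 8.53% on chromosome 22 and 7.26% over all 35116 windows. Which regions lie at these promoters was not analysed here, since no hg19 annotation was used.

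Neither fold nor width differed between the arms by more than the spread of the libraries when library medians were compared. The authors' fold enrichment at the summit had a library median of 6.58 ± 0.273 on 20q and 6.60 ± 0.298 on 20p (SD, n = 8). The log2 difference was -0.00 ± 0.04, with 5 libraries higher and 3 lower on 20q and an adjusted exact sign-flip p of 0.781. With the mean of log2 fold in place of the median, 20q was lower than 20p by a log2 of -0.055, with an adjusted exact p of 0.0117, so the call depended on how a library's peaks were summarised. Median width was 238 ± 23.8 bp on 20q and 244 ± 20.2 bp on 20p (SD, n = 8), a log2 difference of -0.04 ± 0.08 that did not pass (adjusted exact p = 0.387). G9a hairpins made no detectable difference to the arm contrast in fold, which was -0.00304 on the log2 scale in shG9a (n = 5) and -0.00548 in shSCR (n = 3), with an exact permutation p of 0.929.

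Against the other chromosomes, fold was 6.60 ± 0.293 on chromosome 20, 6.87 ± 0.222 on 21q and 6.64 ± 0.194 on 22q (SD, n = 8). The log2 difference was -0.06 ± 0.06 from 21q (adjusted exact p = 0.107) and -0.01 ± 0.04 from 22q (adjusted exact p = 0.597), and neither passed. The 21q difference passed with mean log2 fold (-0.0796, adjusted exact p = 0.0117), and with stronger peaks alone. In the 3 shSCR libraries the difference from 21q was 0.00333, so its sign was not the same in that group. Width was 239 ± 22.7 bp on chromosome 20, against 246 ± 18.3 bp on 21q and 249 ± 21.4 bp on 22q. Only the width difference from 22q passed (log2 -0.06 ± 0.05, narrower on chromosome 20 in 7 of 8 libraries, adjusted exact p = 0.0469), and it no longer passed without any 1 of the 7 libraries other than shSCR replicate 1 (-0.0637 to -0.0426).

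The recovered background, the level the caller expected at a summit, did not differ between the arms beyond the spread of the libraries. Over the library's lowest common background it was 1.64 ± 0.207 on 20q and 1.67 ± 0.217 on 20p (SD of library medians, n = 8), equal in 6 libraries and lower on 20q in 2 (adjusted exact p = 0.597). Chromosome 20 as a whole had 1.64 ± 0.204, against 1.51 ± 0.140 on 21q and 1.51 ± 0.168 on 22q. It was above 21q in 5 libraries and equal in 3 (log2 0.12 ± 0.12, adjusted exact p = 0.107), and above 22q in 6 and equal in 2 (log2 0.12 ± 0.10, adjusted exact p = 0.075). Medians of a background that takes few values tie often. With the mean of log2 background, a choice made after seeing the ties, the differences were 0.0951 from 21q and 0.121 from 22q, both with an adjusted exact p of 0.0117.

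Set against the library mean of all peaks, mean log2 background was -0.02 ± 0.03 on 20q and 0.01 ± 0.04 on 20p (SD, n = 8). Among 24 chromosomes and arms these were the places 5 and 4 from the top. Chromosome 1 (0.33), chromosome 5 (0.26) and chromosome 8 (0.19) had higher means, and chromosome 10 came next below at -0.02 ± 0.05, within the spread of both arms. Chromosome arm 21q had -0.10, 22q had -0.13 and the X chromosome -0.34. The 2 arms overlapped each other over the libraries. Whether the caller took its background from an input is not given in the sources used here, and peaks have to exceed the background to be listed, so this level describes summits and not the whole arm.

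Many chromosome 20 regions were listed once only. Of the 1372, 513 (37.4%) came from 1 library, and 177 (12.9%) from 8 or 9 libraries. Over all chromosomes these shares were near, at 38.8% and 12.1%. The regions of a single library came mostly from shSCR, with 0, 15 and 16 in shG9a_1 and 2, 19 and 3 in shG9a_4, against 139, 281 and 38 in shSCR. Regions listed in all 3 shSCR libraries, called reproducible here, numbered 467 (34.0%), of which 307 lay on 20q and 160 on 20p. In the whole series 14209 of 43222 regions (32.9%) were reproducible. There were 61 regions (4.45%) in no shSCR list, against 4.55% over all chromosomes.

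The reproducible regions were unevenly spread. Neighbours lay a median of 11.8 kb apart on 20q, 16.9 kb on 20p, 12.7 kb on 21q and 15.0 kb on 22q, and 22 kb over all chromosomes. On 20q 43.6% and on 20p 43.8% had the next one within 10 kb, against 45.4% on 21q, 38.6% on 22q and 36.8% overall. The fullest window of 1 Mb on the chromosome was chr20:48000001-49000000 on 20q, with 30 reproducible regions, place 19 of 2204 windows in the series. It held 0, 21 and 22 regions in shG9a_1, 22, 32 and 23 in shG9a_4, and 50, 65 and 40 in shSCR. Of its 30 reproducible regions, 4 were in no shG9a list, 17 in 1 to 4 and 9 in at least 5. The next fullest window was the end of 20q, chr20:62000001-63000000, with 25, and the fullest on 20p was chr20:3000001-4000000, with 17. The fullest window supplied 8.15% to 10.1% of the regions called on 20q in all 8 libraries.

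The share of chromosome 20 sites that left the lists lay near that of the series. Of the 467 reproducible regions, 34 (7.28%, Wilson 95% interval 5.26 to 10.0) were listed in none of the 6 shG9a libraries, which is called lost here. Over all chromosomes 9.49% were lost. The count was 19 of 307 (6.19%) on 20q and 15 of 160 (9.38%) on 20p, and the Wilson intervals, 4.00 to 9.46 on 20q and 5.76 to 14.9 on 20p, overlap. On 21q 20 of 196 (10.2%) and on 22q 38 of 347 (11.0%) were lost. Such intervals cover counting error alone. A lost region is one that no shG9a list names, and a weak site can drop from a list with its binding still present.

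Kept regions, listed in all 3 shSCR and at least 5 of the 6 shG9a libraries, numbered 177 of 467 (37.9%), against 36.9% over all chromosomes. On 20q 110 of 307 (35.8%) and on 20p 67 of 160 (41.9%) were kept, against 40.3% on 21q and 40.6% on 22q. The remaining 256 (54.8%) were listed in 1 to 4 shG9a libraries. Only 1 region was gained, that is, in no shSCR list and in at least 2 of 3 lists of each hairpin, out of the 61 in no shSCR list, against 0.204% over all chromosomes. With the 11000 leading peaks of each list, 2 of 213 reproducible regions were lost, and no share of the series is given here at that setting. The count of lost regions depended on single libraries. It was 59 of 470 without shG9a_4 replicate 2, and 65 of 529, 53 of 500 and 143 of 684 without shSCR replicates 1, 2 and 3. Without an shSCR library, fewer shSCR lists have to name a region, so the base is larger. No share of the series is given here for these repeats. The gained region dropped out of the count without shG9a_1 replicate 2 or 3 or shG9a_4 replicate 1 or 2.

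How strong a site was in shSCR went with whether it stayed in the lists. The median fold in shSCR was 6.30 at lost regions of chromosome 20, 7.70 at regions in 1 to 4 shG9a lists and 12.5 at kept regions, and median widths were 341, 444 and 666 bp. Reproducible regions of the whole series were split into 3 classes of equal size by strength, the mean percentile of a region's leading peak by q-value within each shSCR list. On chromosome 20 the weakest class had 150 regions with 28 lost and 4 kept, the middle class 172 with 6 lost and 49 kept, and the strongest class 145 with 0 lost and 124 kept (85.5%). Over all chromosomes 24.3%, 4.05% and 0.127% were lost in the weakest, middle and strongest class, and 83.0% of the strongest class was kept. The strength order on chromosome 20 is therefore that of the series. In the weakest class were 33.6% of 20q and 29.4% of 20p reproducible regions.

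By library, the shG9a_1 lists named 0.857%, 61.0% and 67.7% of the 467 regions, and those of shG9a_4 61.2%, 77.7% and 67.9%. Over all chromosomes, the shG9a_1 lists named 0.767%, 57.7% and 64.5% of such regions, and the shG9a_4 lists 58.3%, 77.3% and 66.3%. Each series value lay within the Wilson 95% interval of its chromosome 20 value. Of the 307 reproducible regions on 20q, shG9a_1 replicates 2 and 3 listed 189 and 200, and shG9a_4 listed 186, 238 and 212. Of the 160 on 20p, shG9a_1 replicates 2 and 3 listed 96 and 116, and shG9a_4 listed 100, 125 and 105.

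More sites were missing from the shG9a_1 lists than from the shG9a_4 lists, a difference that was not tested. With shG9a_1, 104 regions (22.3%) were in none of its 3 lists, against 25.3% over all chromosomes. With shG9a_4, 53 (11.3%) were in none, against 13.5% over all chromosomes. The near-empty list of shG9a_1 replicate 1 leaves that hairpin 2 usable libraries, and its part in the gap was not tested. Listed in all 3 shG9a_4 and in no shG9a_1 library were 14 regions, 11 on 20q and 3 on 20p, against 0.907% of all regions. The reverse needs a call in the list of 113 peaks, and 0 regions had it on chromosome 20 or elsewhere. In 2 shG9a_1 lists and no shG9a_4 list were 7 of the 1372 regions, 2 on 20q and 5 on 20p, against 171 of 43222 in the series.

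Among those 14, the region chr20:47538077-47538693 on 20q had a fold of 6.26, 7.29 and 5.87 in shG9a_4 and 12.9, 15.3 and 12.5 in shSCR, with no call in shG9a_1. The shG9a_4 values were all lower than the shSCR ones, without overlap. The same held at the other named 20q regions of this kind, chr20:30300395-30300826 (2 shSCR calls) and chr20:36154717-36155151. On 20p, chr20:5046608-5046959 had 9.10, 6.72 and 5.07 in shG9a_4 and 13.8, 15.0 and 10.5 in shSCR, again without overlap. The other 2 such regions of 20p overlapped between the groups: chr20:13765938-13766428 had 4.16, 4.63 and 5.81 in shG9a_4 and 6.65, 8.77 and 4.98 in shSCR, and chr20:17830500-17830858 had 6.36, 5.01 and 4.31 in shG9a_4 and 5.01, 5.34 and 5.75 in shSCR. These 6 regions were picked for high strength in shSCR, a choice that favours shSCR folds above those of shG9a_4. How often regions of the series lie without overlap in fold is not given here, so no count is drawn from them. Fold is the authors' value, and its background term differs between lists.

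The strongest kept site of 20q, chr20:37063260-37064213, was listed in all 9 libraries. Its fold was 9.27, 40.3 and 57.2 in shG9a_1 and 48.3, 65.1 and 34.7 in shG9a_4, against 50.1, 65.1 and 54.3 in shSCR. Apart from the near-empty library the groups overlapped. The other 20q site in all 9 lists, chr20:42086320-42087324, had 9.27, 36.6 and 36.3 in shG9a_1 and 29.6, 46.1 and 27.9 in shG9a_4, against 38.3, 49.1 and 45.4 in shSCR. The next 3 by strength on 20q were chr20:33680401-33681362, chr20:49547587-49548758 and chr20:39656918-39657376. All 5 ranked by q-value above at least 99.3% of the peaks of the shSCR lists on average. The widest 20q region, chr20:62586908-62589169, covered 2262 bp and was listed in 5 of 6 shG9a libraries.

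On 20p the strongest kept site was also the widest of its arm, chr20:17948840-17950697, at 1858 bp. Its fold was 4.57, 34.0 and 36.7 in shG9a_1 and 24.8, 45.1 and 49.1 in shG9a_4, against 39.7, 71.6 and 51.8 in shSCR. The second, chr20:342858-343510, had 7.93, 37.2 and 48.7 in shG9a_1 and 33.8, 68.7 and 41.1 in shG9a_4, against 41.9, 33.5 and 54.4 in shSCR. Both were in all 9 lists, and in both the groups overlapped. The other leading 20p sites were chr20:3788647-3789114, chr20:304703-305493 and chr20:10652039-10652691. At the 5 leading sites of each arm the change in relative height, described below, was -0.31 to 0.33 on 20q and -0.12 to 0.38 on 20p on the log2 scale, and none of these 10 passed (adjusted limma p of 0.183 to 0.938). With pileup over the library's lowest background in place of centring, 6 of the 10 passed as lower in shG9a. The log2 changes were then -1.18 to -0.49 over the 10 (adjusted limma p of 0.00436 to 0.141).

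The single gained region, chr20:343932-344435, lay 421 bp beyond the end of that second 20p site. It had a fold of 7.44 in shG9a_1 replicate 2, 5.24 in shG9a_1 replicate 3, 5.27 in shG9a_4 replicate 1 and 5.78 in shG9a_4 replicate 2, and no call in shSCR. Its pileups in these 4 libraries were 11, 8, 10 and 10 fragments, and the neighbouring site was listed in all 9 libraries.

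The leading lost sites were of middling strength. On 20q, chr20:35475455-35475764 had a fold of 9.20, 8.51 and 8.31 in the 3 shSCR libraries and no shG9a call. It was followed by chr20:56010732-56011401, chr20:36156370-36156792, chr20:47214096-47214336 and chr20:55787605-55787882, with mean shSCR folds of 7.31 to 8.68 over the 5. On 20p, chr20:22370871-22371260 had 7.67, 12.7 and 7.74 in shSCR and no shG9a call. After it came chr20:3767372-3767685, chr20:18505350-18505656, chr20:247658-247871 and chr20:3799008-3799383, with mean shSCR folds of 6.99 to 9.36 over the 5. The kept leaders of either arm, at mean shSCR folds of 29.7 to 56.5, lay well above all 10.

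Peak heights were compared where a peak was listed in every library of at least 1000 peaks, which left 177 of the 1372 chromosome 20 regions, 110 on 20q and 67 on 20p, all of them kept. Before any centring, most of them stood lower in shG9a in pileup over the library's lowest background. The median pileup over the library's lowest background was 35.1 and 33.3 in shG9a_1 replicates 2 and 3 and 21.3, 37.5 and 20.4 in shG9a_4, against 51.1, 59.2 and 48.8 in shSCR. The means were 29.5 ± 8.09 (SD, n = 5) in shG9a and 53.0 ± 5.46 (SD, n = 3) in shSCR, with an exact permutation p of 0.0357, the smallest that 56 splits allow, and 0.0536 after adjustment over the 9 group comparisons. The means were 29.8 in shG9a and 54.1 in shSCR on 20q, and 29.5 in shG9a and 50.9 in shSCR on 20p. At 100 of the 177 regions all shG9a values were below all shSCR values, against 56.1% of the 5244 regions so compared in the series. In pileup over the lowest background, the median log2 shift over all 5244 regions was -0.88, and changes below are given relative to it.

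Relative to the median of its library, height changed at few chromosome 20 sites. With limma on log2 pileup centred on each library's median, 2 of 177 regions were higher in shG9a at an adjusted p under 0.05, against 0.420% of all regions (22 of 5244). None of the 177 was lower, against 0.0381% (2 of 5244). An unadjusted limma p under 0.05 was found at 20 of the 177, against 484 of 5244 in the series. With pileup over the library's lowest background in place of centring, limma called 141 of the 177, all lower in shG9a. In the series it called 4021 of 5244. That lowest background was 0.37 and 0.48 in shG9a_1 replicates 2 and 3 and 0.8, 0.48 and 1.03 in shG9a_4. In shSCR it was 0.45, 0.49 and 0.41. The part of this divisor in the calls was not tested. The median relative change was -0.02 on 20q and 0.06 on 20p on the log2 scale, and -0.01 over both, as over all 5244 regions. All shG9a values lay above all shSCR values at 7 of the 177, against 3.05% of all regions, and below them at 5, against 2.36%. The mean relative height of 20q minus that of 20p was -0.0394 ± 0.0448 (SD, n = 5) in shG9a and -0.000178 ± 0.0494 (SD, n = 3) in shSCR, with an exact permutation p of 0.393, adjusted 0.655.

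Both regions past the test lay on 20q, 10113 bp apart, inside the fullest window. At chr20:48037441-48037870 the pileup was 15 and 21 fragments in shG9a_1 replicates 2 and 3 and 27, 21 and 27 in shG9a_4, against 14, 18 and 9 in shSCR. Relative to the library median that is 1.15 and 1.24 in shG9a_1 and 1.5, 1.05 and 1.17 in shG9a_4, against 0.583, 0.581 and 0.429 in shSCR. All 5 shG9a values were above all 3 shSCR values. The log2 change in relative height was 1.21 with an SE of 0.22, and limma's adjusted p was 0.00172.

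At chr20:48047984-48048362 the pileup was 14 and 20 fragments in shG9a_1 and 22, 26 and 22 in shG9a_4, against 11, 18 and 12 in shSCR. Relative to the library median it was 1.08 and 1.18 in shG9a_1 and 1.22, 1.3 and 0.957 in shG9a_4, against 0.458, 0.581 and 0.571 in shSCR, again without overlap. The log2 change was 1.09 with an SE of 0.22 and an adjusted limma p of 0.00465, and the adjusted p was 0.0843 without shSCR replicate 1. Over the library's lowest background, with no centring, the changes of the pair were 0.34 and 0.22 on the log2 scale, with adjusted limma p of 0.343 and 0.529.

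Chosen after its values were seen, the region chr20:48036951-48037139 lay 301 bp before the first of the pair. It was listed in all 3 shG9a_4 libraries, with pileups of 14, 12 and 15 fragments, and in no shG9a_1 or shSCR library. At the other extreme, also chosen after its values were seen, chr20:34359753-34360415 had the lowest relative change on the chromosome, a log2 of -0.55. It did not pass, with an adjusted p of 0.355 from limma. Over the library's lowest background, with no centring, the log2 change was -1.42 with an adjusted limma p of 0.00285. Its fold was 6.04 and 5.43 in shG9a_1 and 5.75, 8.78 and 5.98 in shG9a_4, against 12.4, 14.4 and 11.5 in shSCR, without overlap.

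Summits of kept regions lay close together across libraries. The SD of a region's summit over the 8 libraries had a median of 37.6 bp on 20q and 36.5 bp on 20p, against 37.9 bp over all compared regions. Regions of 1 kb or more numbered 44 of 1372 on chromosome 20 (3.21%), 31 on 20q and 13 on 20p, against 4.19% over all chromosomes.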

How the data were processed

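MYC ChIP-seq peak lists of 9 libraries were used, 1 list per library with replicates kept apart, going by the deposited peak names. The submitters' processing notes list MACS2 2.1.0, Picard 2.7.1, SAMtools 1.3 and STAR 2.5.2a, and as builds hg19 and GRCh37, with no roles. For the caller, settings were not given in the sources used here. The authors' lists hold, per peak, a score, a fold enrichment (a ratio of pileup to background, each with 1 added), a −log10 p-value and a −log10 q-value. The deposited score equals 10 times the −log10 q with decimals dropped in 99.998% of rows.

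Peaks were merged at 1 bp of overlap. Pileup and background were recovered from the authors' fold and p-value under a Poisson model, and 100% of chromosome 20 peaks gave a whole pileup within 0.001. The lowest background shared by at least 1% of a library's peaks, divided by its shortest peak, gave relative depth. This assumes 1 genome size setting for all lists, a shortest peak that follows fragment length and a background scaled to the immunoprecipitated library. These assumptions could not be checked here. Arms of chromosomes 21 and 22 were counted from 14000000 and 16000000, which left out 3 regions of chromosome 21.

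Ratios between arms were tested within libraries by exact sign flips, group differences by exact permutation, both two-sided with Benjamini-Hochberg adjustment. Heights were fitted with limma 3.58.1 (R 4.3.3, trended variance) on all 5244 regions listed in every library of at least 1000 peaks, on log2 pileup centred on the library median. The code was tested on simulated data. Binomial intervals are Wilson 95%. Python 3.11.15 and SciPy 1.17.1 served elsewhere. Named regions are the 5 strongest kept and the 5 strongest lost of each arm, the widest region and fullest 1 Mb window of each arm, all gained regions, those past the height test and up to 3 per arm specific to a hairpin; others are marked in the text. The regions and lists were chosen with earlier results of these data known. Alternatives were stricter peak thresholds, the 11000 leading peaks per list, other summaries and scalings, the replicate number as a block, and each library left out in turn.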

Additional observations from a re-analysis of the deposited data

Results flagged for a closer look

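In the group of 6 shG9a libraries, the number of chromosome 20 peaks in shG9a_1 replicate 1 stood apart, at 4 against 363 in the next lowest and 571 in the highest library. At chr20:34359753-34360415 the fold in shG9a_4 replicate 2, 8.78, stood apart from the other 4 shG9a libraries, of which the highest had 6.04 and the lowest 5.43. Each gap was above Dixon's 95% critical value for its group size. Of 32 groups of libraries tested, 2 were marked in this way, and chance alone marks about 1 group in 20.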

How the results depend on the processing

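Of 316 repeats of the results under other settings, 231 kept direction and side of the threshold (or stayed within 1.5 times a count). The densities kept their direction in every repeat. With 1 library left out the log2 density difference was 0.545 to 0.576 for 20q over 20p, 0.477 to 0.499 for chromosome 20 over 21q and -0.406 to -0.390 against 22q. The adjusted exact p was 0.0625 without any 1 of 7 libraries, and there was a pass without shSCR replicate 1. In all these repeats the raw exact p was the smallest possible. The 3 shSCR libraries alone cannot pass by design (0.545, 0.441 and -0.418, and -0.0320 for width against 22q). Width against 22q was -0.0669 to -0.0426 with 1 library left out. The replicate block averages libraries of 1 number and so leaves 3 values. These cannot pass by design either, since the exact sign-flip p is then 0.25 at the least. The block gave 0.554, 0.480 and -0.401 for density and -0.0519 for width against 22q. In departures of relative height from the group mean, same-numbered libraries correlated at -0.0226 to 0.154 (median 0.0548). Libraries of different number correlated at -0.144 to 0.0807 (median -0.0382). With so few libraries in a group, these values cannot tell whether the numbers mark pairs. The block in the height fit called 2 regions on chromosome 20 and 22 in the series. Background against 21q passed at 0.119 (q of at least 5 on the −log10 scale), 0.120 (fold of at least 5), 0.137 (11000 leading peaks) and 0.0951 (mean log2), and against 22q at 0.126, 0.151, 0.103 and 0.121. Fold against 21q passed at -0.060, -0.0514, -0.114 and -0.0796 in the same order, fold against 22q at -0.0459 (q) and -0.0696 (leading peaks), and fold of 20q against 20p at -0.0565 (leading peaks) and -0.055 (mean log2). Width against 21q passed at -0.0981 (leading peaks) and -0.0426 (mean log2). In shSCR alone the signs turned for fold against 21q (0.00333) and 22q (0.0187) and width against 21q (0.0637). Fold of 20q against 20p was -0.00943 to 0.00486 with 1 library left out. The shG9a minus shSCR difference in that arm contrast turned to -0.0227, -0.00110 and -0.0198 with q, fold and leading peaks, and was -0.0276 to 0.0220 with 1 library left out. The same difference in the 20q share turned to -0.374 (q) and -0.674 (fold) and was -0.353 to 1.26 with 1 left out, and that in the chromosome 20 share turned to -0.00992 (fold) and -0.0255 (leading peaks) but was 0.485 with the q threshold. With 1 library left out it was 0.140 to 0.198, and the difference in peak number was -658.5 to -422.5. With leading peaks alone, equal in number in each list and without shG9a_1 replicate 1, the difference in peak number was -2.8. The leading peaks left 213 reproducible and 2 lost regions, and the q threshold 112 kept and 0 gained. With 1 library left out there were 467 to 684 reproducible, 34 to 143 lost, 175 to 252 kept, 0 to 1 gained and 1 to 3 regions past the height test. With pileup over the library's lowest background in place of centring, 141 regions were past that test. The cause of these changes was not tested. Depth is known in relative form only, and a site that left a list may be below the caller's threshold there. An hg19 annotation, planned for arm lengths, gene lists and motif counts, was not used here, and those alternatives were not run.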
